A study of Homo sapiens with 24 samples.

Results

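The genes described are those of polyamine synthesis and breakdown: ODC1, AMD1, SRM, SMS, SAT1, SMOX, OAZ1, OAZ2 and AZIN1. They were taken as the rows of the deposited gene count table whose Ensembl identifier, version removed, carries one of these symbols, whatever their values. All 9 were found among the 60668 genes of the table, and all 9 were among the 22158 genes with enough counts to be tested. Their counts were high. The lowest value of any of them in any library was 239 counts, for SMOX, and each of the others had at least 4272 counts in every library.

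RNA was sequenced from MCF-10A, an immortalised human mammary epithelial cell line, grown in 3D culture on Matrigel, a basement membrane gel. The wild-type line, called parental here, was compared with MCF-10A cells of the MYC.ER genotype, in which the transcription factor MYC is joined to the ligand-binding domain of the oestrogen receptor (ER) and becomes active when 4-hydroxytamoxifen (4-OHT) binds. Both lines received 1 µM 4-OHT for 0, 8, 24 or 48 h, beginning on day 3 at the earliest, and every well was collected on day 5, so the 0 h groups were untreated wells of the same age. The 8 groups of line and time held 3 replicates each, 24 libraries in all. The labels do not give the promoter or the species of the fusion gene, or whether the MYC-ER line is a single clone. No line carrying the receptor part without MYC is among the samples, so what the fusion does cannot be told apart from what its receptor part does.

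The labels do not say whether the replicates were separate cultures or wells of 1 culture, so the p-values measure the spread between these samples, which may be technical. Library totals ran from 136860029 to 182438505 counts. The MYC row, which may hold reads of both the endogenous gene and the fusion, averaged 387, 795, 321 and 248 CPM in MYC-ER cells at 0, 8, 24 and 48 h. CPM are counts scaled to a common library total, here by the TMM method. Parental means lay between 463 and 532 CPM. All 6 basal mammary epithelial markers checked exceeded 10 CPM in some library, while endothelial markers summed to at most 2.99 CPM. The basal sums lay between 14500 and 14980 CPM in untreated MYC-ER cells and between 10480 and 17110 in treated ones. In parental cells they lay between 19120 and 30070 CPM. The 6 general or luminal epithelial markers summed to between 408.5 and 438.3 CPM in untreated MYC-ER cells and between 590.7 and 925 in treated ones. Parental sums of that list lay between 450.9 and 631.4 CPM. Of the immune list CD3E, which defines T cells, had no counts in any library and PTPRC, which marks blood cells in general, none in MYC-ER cells. The 5 immune markers summed to between 55.7 and 60.1 CPM in untreated MYC-ER cells, mainly CSF1R (mean 41.4 CPM) and CD68 (16.7 CPM), to between 24.8 and 39.6 CPM in the treated ones, and to between 24.8 and 42.0 CPM in parental cells. Fibroblast markers summed to between 370 and 377 CPM in untreated MYC-ER cells, mainly COL1A1 and DCN, to between 79.9 and 130.2 CPM in the treated ones, and to between 117 and 133 CPM in untreated parental cells. The rest of that list was nearly absent. In untreated MYC-ER cells COL1A2 had no counts, COL3A1 at most 2 counts, LUM at most 0.2155 CPM and PDGFRB at most 0.839 CPM. Counts of mitochondrial genes made up between 9.24% and 9.71% of each untreated MYC-ER library and between 5.61% and 6.78% of each treated one. In parental cells the share lay between 5.51% and 7.78% except in 0 h replicate 1, with 3.86%. The part of these marker lists and of the mitochondrial share in the changes below was not tested. In bulk RNA, fewer cells expressing a gene and less RNA per cell cannot be told apart.

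Polyamines are small, positively charged molecules that bind nucleic acids and are needed for growth. Ornithine decarboxylase (ODC1) makes putrescine from ornithine, AMD1 makes the aminopropyl donor from S-adenosylmethionine, and the synthases SRM and SMS use that donor to build spermidine and then spermine. SAT1 acetylates polyamines for export or oxidation, and SMOX oxidises spermine back to spermidine. Antizymes (OAZ1, OAZ2) bind ODC1 protein, send it to the proteasome and block polyamine uptake, and the antizyme inhibitor AZIN1, an ODC1 relative without enzyme activity, binds the antizymes in its place. ODC1 is a long-known direct target gene of MYC, and much of the regulation of AMD1, SAT1 and the antizymes acts on translation or protein stability, which RNA counts do not measure.

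On GRCh38 and with the gene models of GENCODE 29, ODC1 lies on chromosome 2 from 10439968 to 10448504 on the minus strand and SRM on chromosome 1 from 11054584 to 11060024, also on the minus strand. AMD1 is on chromosome 6 from 110874770 to 110895713 (plus strand), SMS on chromosome X from 21940573 to 21994835 (plus), and SAT1 on chromosome X from 23783173 to 23786226 (plus). SMOX is on chromosome 20 from 4120980 to 4187747 (plus), OAZ1 on chromosome 19 from 2269509 to 2273490 (plus) and OAZ2 on chromosome 15 from 64687573 to 64703281 (minus). Whether the counting used strand is not given in the sources used here, so genes with overlapping exons carry some uncertainty. OAZ1 shares 236 exon bases with JSRP1 on the opposite strand and 220 with AC005258.1 on its own strand, OAZ2 shares 554 with the antisense gene AC100830.3, and AZIN1 shares 344 with AZIN1-AS1. These 4 neighbours reached at most 0.159, 0.0316, 0.0695 and 1.16 CPM by library total, in that order. The 10 pseudogene rows named after members reached at most 0.308 CPM.

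MYC with its partner MAX binds the E-box CACGTG, so the stretches that hold it near the members' starts are shown. The windows searched run from 250 bases before to 50 after each start in RefSeq (GRCh38.p14). Windows were found for 7 of the members used here. SMOX has no window in the table, and AZIN1 was not searched here. CACGTG, which reads the same on both strands, occurred near ODC1 and SRM and was not in the windows of AMD1, SMS, SAT1, OAZ1 and OAZ2. Over all promoters, 7.26% of 35116 windows and 8.77% of 27305 genes held it. The related CACGCG, or CGCGTG on the other strand, occurred in 11.4% of windows and, among these members, only at the first listed start of ODC1, where both readings overlap. The stretches below are 5′ to 3′ on the minus strand, with these motifs in capitals. The motifs lie outside the exons that GENCODE 29 gives for the same gene, and the other letters were not checked. Letters after the second ODC1 start lie within the RefSeq transcript that begins there. The SRM stretch, chr1:11060029-11060268, covers 250 to 11 bases before the start. The ODC1 stretch at its second listed start, chr2:10448001-10448072, covers 60 bases before to 12 after that start, and the one at its first listed start, chr2:10448506-10448577, covers 250 to 179 bases before it.
SRM: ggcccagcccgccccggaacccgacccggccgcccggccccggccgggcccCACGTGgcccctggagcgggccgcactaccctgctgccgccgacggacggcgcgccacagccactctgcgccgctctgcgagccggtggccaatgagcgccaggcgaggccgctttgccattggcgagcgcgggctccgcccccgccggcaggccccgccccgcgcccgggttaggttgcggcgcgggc
ODC1, second start: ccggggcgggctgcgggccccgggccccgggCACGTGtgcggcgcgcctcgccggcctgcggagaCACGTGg
ODC1, first start: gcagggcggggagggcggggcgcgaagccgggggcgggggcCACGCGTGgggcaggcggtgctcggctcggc
The SRM E-box begins 199 bases before the start. At the second ODC1 start, 1 E-box begins 29 bases before it and the other at position 6 after it. A match is a description of the letters and not evidence of binding.

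ODC1, the entry enzyme of the pathway, had the largest change against 0 h among the 9 genes in MYC-ER cells. Its 3 MYC-ER libraries at 0 h held 60.5, 65.2 and 65.7 CPM. At 8 h of 4-OHT they held 510.1, 479 and 500.4 CPM, a 7.78-fold rise (log2 change 2.96, SE 0.063, adjusted p = 9.71e-20). Adjusted p-values throughout are from edgeR's quasi-likelihood test with Benjamini-Hochberg adjustment over all genes tested, two-sided, and a gene is said to rise or fall where that value is under 0.05. The level then declined without returning to the start. At 24 h the libraries held 363, 342 and 330.3 CPM, a log2 change of 2.44 from 0 h, and at 48 h 117, 116 and 112 CPM, a log2 change of 0.85 (adjusted p = 1.13e-10). No MYC-ER library of one time overlapped those of another. In parental cells ODC1 was already high before 4-OHT, at 498, 499 and 509 CPM, which is the range the MYC-ER cells reached at 8 h. The parental libraries held 648, 624 and 663 CPM at 8 h, 504, 475 and 493 at 24 h, and 344, 386 and 419.5 at 48 h. Those of 8 h were the highest and those of 48 h the lowest.

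SRM, spermidine synthase, also rose at 8 h and was back in its starting range at 48 h. MYC-ER libraries held 63.8, 60.8 and 64.1 CPM at 0 h and 278, 260.1 and 283 CPM at 8 h, a 4.35-fold rise (log2 2.12, SE 0.081, adjusted p = 8.94e-16). At 24 h they held 169, 168 and 154 CPM (log2 1.38) and at 48 h 62.7, 60.4 and 59.2 CPM. The 48 h libraries overlapped the 0 h libraries, and the difference did not pass the test (log2 -0.05, SE 0.078, adjusted p = 0.659). In parental cells the 0 h libraries were spread from 165 through 189 to 229.5 CPM, with replicate 2 lowest and replicate 3 highest. Parental libraries held 185, 182.4 and 189 CPM at 8 h, 159, 154 and 159.8 at 24 h, and 132, 143 and 146 at 48 h.

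SMS, spermine synthase, rose nearly as much at 8 h and was still above its start at 48 h. It held 48.4, 48.0 and 52.2 CPM in MYC-ER cells at 0 h and 206, 191 and 199.7 CPM at 8 h, a 4.02-fold rise (log2 2.01, SE 0.054, adjusted p = 3.09e-18). Values were 150.1, 144 and 145 CPM at 24 h (log2 1.56) and 87.7, 84.9 and 81.8 CPM at 48 h (log2 0.78, adjusted p = 6.9e-11). All MYC-ER libraries at 48 h thus stayed above all at 0 h. Parental SMS kept within 104 to 138 CPM over all 12 libraries. It was called higher at 24 h (log2 0.25, adjusted p = 0.000493), with all 24 h libraries above all at 0 h. With only the groups compared in the fit, that call was lost (adjusted p = 0.0527).

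AMD1, S-adenosylmethionine decarboxylase, had the smallest rise of the 4 synthesis genes at 8 and 24 h and ended below its start. MYC-ER libraries held 96.1, 96.4 and 96.2 CPM at 0 h, 156, 165 and 144 at 8 h, 128, 119.9 and 117 at 24 h, and 70.3, 65.7 and 69.2 at 48 h. The 4 times did not overlap. Against 0 h the log2 change was 0.69 at 8 h (SE 0.078, adjusted p = 7.53e-08), then 0.34 (adjusted p = 0.000646), and at the last time -0.49 (adjusted p = 2.03e-05). Parental AMD1 was 143, 176 and 131 CPM at 0 h, with replicate 2 highest. It lay between 161 and 168 CPM at 8 h, between 180.1 and 186 at 24 h and between 159 and 181.7 at 48 h.

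**Figure D1:**
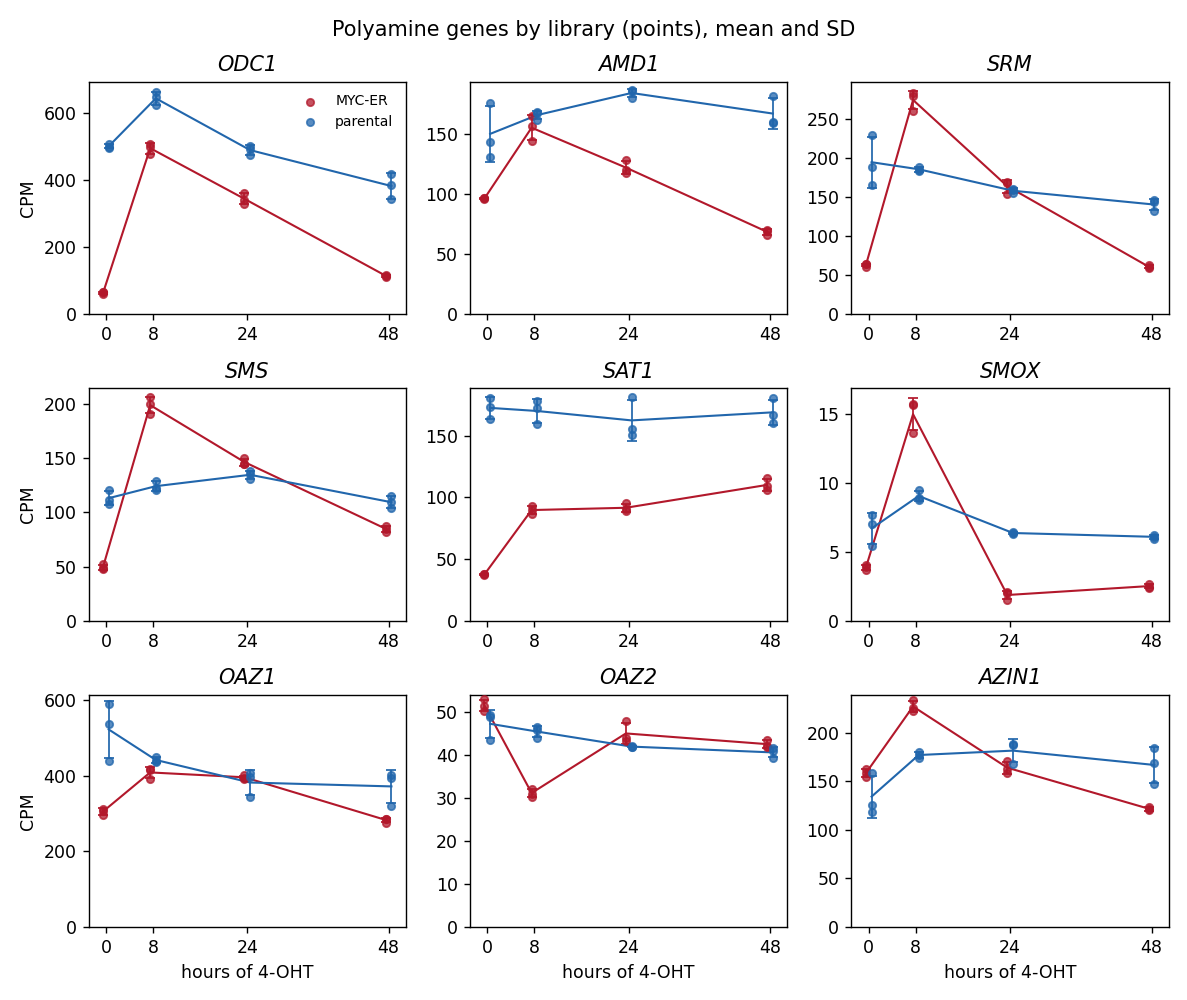
CPM (vertical axes, from 0, each gene on its own scale) of the 9 genes against hours of 4-OHT, with 1 point per library, lines through group means and bars of 1 SD (n = 3); MYC-ER is red and parental blue. In MYC-ER cells ODC1, SRM and SMS are highest at 8 h and decline to 48 h, SAT1 does not decline, and SMOX drops below its 0 h level at 24 h, while in parental cells ODC1, SRM, SMS, SAT1 and SMOX change by at most 0.47 on the log2 scale against 0 h.

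SAT1, the acetyltransferase that starts polyamine breakdown, rose with the synthesis genes but did not come down with them. In MYC-ER cells it held 37.3, 37.5 and 37.9 CPM at 0 h and 86.6, 89.7 and 92.8 CPM at 8 h, a log2 rise of 1.26 (SE 0.065, adjusted p = 1.83e-13). At 24 h the libraries held 88.8, 90.5 and 95.3 CPM, overlapping those of 8 h, and at 48 h 109, 106 and 116 CPM. The change against 0 h was largest at 48 h (log2 1.55, 2.93-fold, SE 0.066, adjusted p = 2.34e-14), when ODC1, SRM, SMS and AMD1 were at their lowest levels after 4-OHT. Parental SAT1 was higher at every time, from 151 to 181 CPM over its 12 libraries, and the 4 times overlapped.

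SMOX, spermine oxidase, was the lowest of the 9 genes and the only one to turn from a rise to a fall between 8 and 24 h. MYC-ER libraries held 3.65, 3.89 and 4.02 CPM at 0 h and 15.6, 13.6 and 15.7 CPM at 8 h (log2 1.96, SE 0.11, adjusted p = 1.15e-12). At 24 h they held 1.99, 2.06 and 1.53 CPM, all below every 0 h library (log2 -1.05, SE 0.11, adjusted p = 4.9e-08). Between 8 and 24 h SMOX thus fell by 8.03-fold (adjusted p = 4.22e-15). At the last time the values were 2.68, 2.38 and 2.46 CPM, above 24 h (log2 0.43, adjusted p = 0.0031) and below 0 h (log2 -0.62, adjusted p = 0.000106). Parental SMOX lay between 5.43 and 7.63 CPM at 0 h, was highest at 8 h (between 8.71 and 9.47), and lay between 5.95 and 6.43 CPM over the 6 later libraries.

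The 2 antizyme genes moved in opposite directions in MYC-ER cells at 8 and 24 h. OAZ1, the main antizyme, held 308, 297 and 313 CPM at 0 h, 419, 391 and 417 at 8 h, 401, 392 and 396 at 24 h, and 287, 286.5 and 276 at 48 h. It rose by log2 0.42 at 8 h (SE 0.087, adjusted p = 0.000208), and its rise at 24 h was 0.37 (adjusted p = 0.000757). The last time did not pass the test against 0 h (log2 -0.11, adjusted p = 0.331), although its libraries lay below those of 0 h. That change was called lower after correction for GC content, for GC content and length, and with only the groups compared in the fit. Over all alternatives its value ran from -0.20 to 0.05. OAZ2 held 50.2, 51.4 and 52.9 CPM at 0 h and 31.0, 30.3 and 32.2 CPM at 8 h, the only fall among the 9 genes at that time (log2 -0.72, SE 0.05, adjusted p = 1.93e-11). It stood at 43.8, 43.3 and 47.9 CPM at 24 h and 43.5, 41.9 and 42.1 CPM at 48 h, all below 0 h. Its fall at 24 h (log2 -0.19, adjusted p = 0.00163) lost the call with scaling by library size alone (log2 -0.08, adjusted p = 0.131). Parental OAZ1 ran from 321 to 590.5 CPM and OAZ2 from 39.3 to 49.4 CPM.

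AZIN1, the antizyme inhibitor, on GRCh38 chromosome 8 from 102826357 to 102893864 (minus strand), rose briefly. MYC-ER libraries held 154, 162 and 158 CPM at 0 h, 225, 233 and 222 at 8 h, 171, 158 and 163 at 24 h, and 121, 124 and 120.2 at 48 h. The rise at 8 h was log2 0.52 (SE 0.083, adjusted p = 1.08e-05), the 24 h libraries overlapped those of 0 h (log2 0.05, adjusted p = 0.628), and at 48 h AZIN1 had fallen (log2 -0.38, adjusted p = 0.000777).

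Counted over the 9 genes, 8 rose and 1 fell in MYC-ER cells at 8 h, where 67.6% of all genes tested passed the test, 32.2% upward and 35.4% downward. At 24 h 6 rose and 2 fell, and of all genes 61.6% passed, 30.4% upward and 31.2% downward. At 48 h 3 rose and 4 fell, and of all genes 44.1% passed, 23.4% upward and 20.7% downward. The median log2 changes of the 9 at these times were 1.26, 0.37 and -0.11, against -0.10, -0.02 and 0.03 over all genes tested. With so much of the transcriptome passing the test, the number called says little about these genes. From 8 to 24 h 6 fell, 1 rose (OAZ2) and SAT1 and OAZ1 did not pass the test (55.5% of all genes passed, 28.4% upward and 27.1% downward). The fall of AMD1 in that interval (log2 -0.35) was not called with library size alone (-0.14, adjusted p = 0.163). From 24 to 48 h 6 fell, SAT1 and SMOX rose and OAZ2 did not pass (53.7%, 28.2% upward and 25.5% downward). ODC1 fell by 1.59 on the log2 scale in that second interval, SRM by 1.43, AMD1 by 0.83 and SMS by 0.79. The comparisons with 0 h share the same 3 untreated libraries, and those of neighbouring times share a group, so they are not independent of each other.

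**Figure D2:**
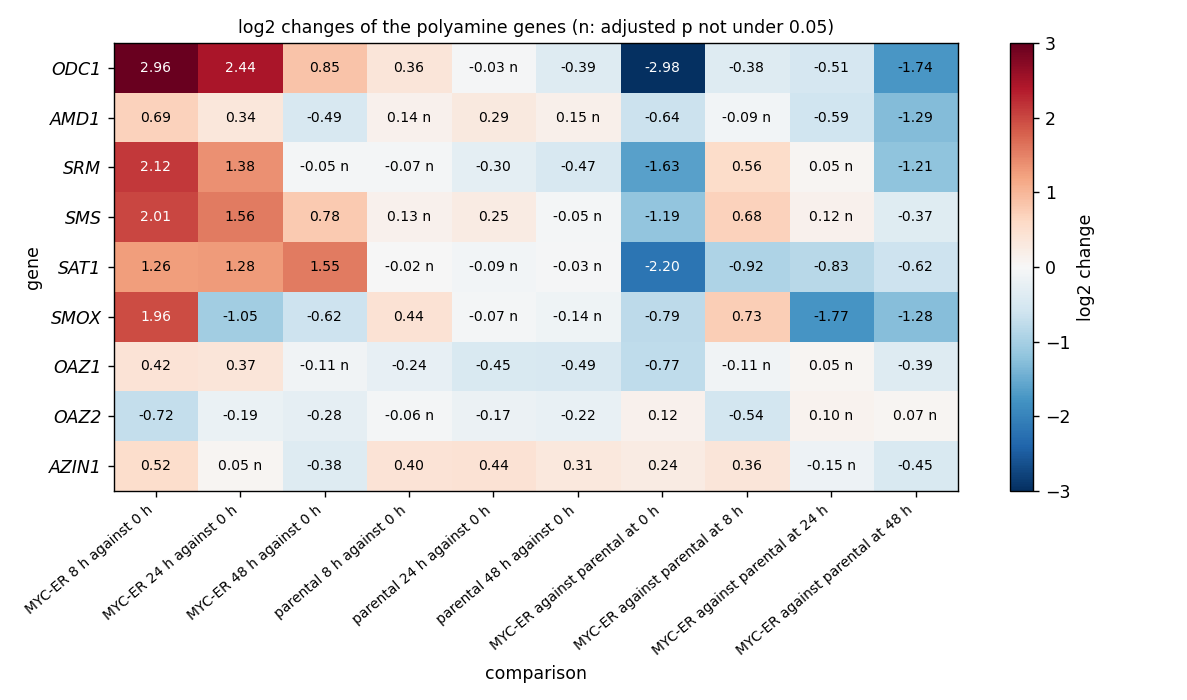
log2 changes (colour and printed number) of the 9 genes (rows) in 10 comparisons (columns), from the fit over all 24 libraries, where n marks an adjusted p that is not under 0.05. The 3 columns of MYC-ER times against 0 h run from 2.96 for ODC1 at 8 h to -1.05 for SMOX at 24 h, and the column of MYC-ER against parental at 0 h is negative for every gene but AZIN1 and OAZ2.

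Parental cells under 4-OHT bear on what the drug does without the fusion. Their largest change against 0 h among the 9 genes was -0.49 on the log2 scale (OAZ1 at 48 h), though some genes moved more than in MYC-ER cells at the same time, such as AZIN1 at 24 h (0.44 against 0.05). At 8 h 3 of the 9 genes rose and 1 fell (31% of all genes tested passed, 15% upward and 16% downward). At 24 h 3 rose and 3 fell (42.9%, 21.2% upward and 21.7% downward), and at 48 h 1 rose and 4 fell (40.5%, 20.4% upward and 20.1% downward). ODC1 was 1.29-fold higher at 8 h (log2 0.36, SE 0.059, adjusted p = 0.000113), with all 3 libraries above all at 0 h, and lower at 48 h (log2 -0.39, adjusted p = 3.62e-05). SMOX was higher at 8 h (log2 0.44, adjusted p = 0.00479). AZIN1 was higher at 8 h (log2 0.40, adjusted p = 0.00113), 24 h (0.44) and 48 h (0.31), and OAZ1 was lower at 24 h (log2 -0.45, adjusted p = 0.00026) and 48 h (-0.49). The call of the fall in OAZ1 at 8 h (log2 -0.24, adjusted p = 0.0385) was lost without parental 0 h replicate 1 (-0.22, adjusted p = 0.115) or replicate 3 (-0.13, adjusted p = 0.276), without any of the parental 8 h replicates 1 (-0.22, adjusted p = 0.108), 2 (-0.24, adjusted p = 0.095) and 3 (-0.26, adjusted p = 0.0692), or after correction for GC content (-0.04, adjusted p = 0.762). The fall in OAZ2 at 24 h (-0.17, adjusted p = 0.00721) was not called without parental 0 h replicate 3 (-0.12, adjusted p = 0.0649) or after that correction (-0.11, adjusted p = 0.0757). SAT1 passed the test at none of the 3 times, though with the GC trend removed it was called lower at 24 h (-0.25, adjusted p = 0.00503) and 48 h (-0.20, adjusted p = 0.0201).

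The parental results were sensitive to a trend of the counts with GC content. Among the 9 genes the annotated transcripts of SRM had the highest GC content, 63.6%, followed by SMOX with 59.7% and OAZ1 with 59.1%, and AMD1 had the lowest, 37.9%. SRM was called lower at 24 h (log2 -0.30, adjusted p = 0.00332), but its value was 0.12 after the GC trend of each library was taken out (adjusted p = 0.0837) and 0.18 after a length trend was taken out as well (adjusted p = 0.00987). AMD1 was called higher at 24 h (log2 0.29, adjusted p = 0.00378), and its value was -0.05 (adjusted p = 0.493) and -0.18 (adjusted p = 0.0115) under the same corrections. Some changes that were not called became calls of the other sign under them. SRM at 8 h went from -0.07 to 0.23 (adjusted p = 0.0029) and 0.27 (adjusted p = 0.000572). AMD1 at 48 h went from 0.15 to -0.23 (adjusted p = 0.00191) and -0.35 (adjusted p = 5.79e-05). SMOX at 24 h went from -0.07 to 0.24 (adjusted p = 0.0448) and 0.26 (adjusted p = 0.0301). The fall of SRM at 48 h (log2 -0.47) was -0.11 with the GC trend removed (adjusted p = 0.0995), the fall of OAZ1 at 24 h was -0.16 (adjusted p = 0.0708) and the rise of AZIN1 at 48 h was 0.10 (adjusted p = 0.299). The changes of ODC1 at 8 h and 48 h and of SMOX at 8 h kept their direction and call in both corrections (ODC1 0.37 and -0.38, SMOX 0.66 with the GC trend removed). The fit also matters. With the 6 libraries of each comparison fitted alone, 1, 2 and 3 of the 9 genes were called at 8, 24 and 48 h (7.41%, 25.1% and 16.6% of all genes). Without parental 0 h replicate 2 the count at 8 h was 7. That library had the highest AMD1 and AZIN1 and the lowest SRM, SMS, SAT1, SMOX, OAZ1 and OAZ2 of its group. In the 3 comparisons of 4-OHT times with 0 h in MYC-ER cells, every called gene kept its direction and call in both corrections.

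**Figure D3:**
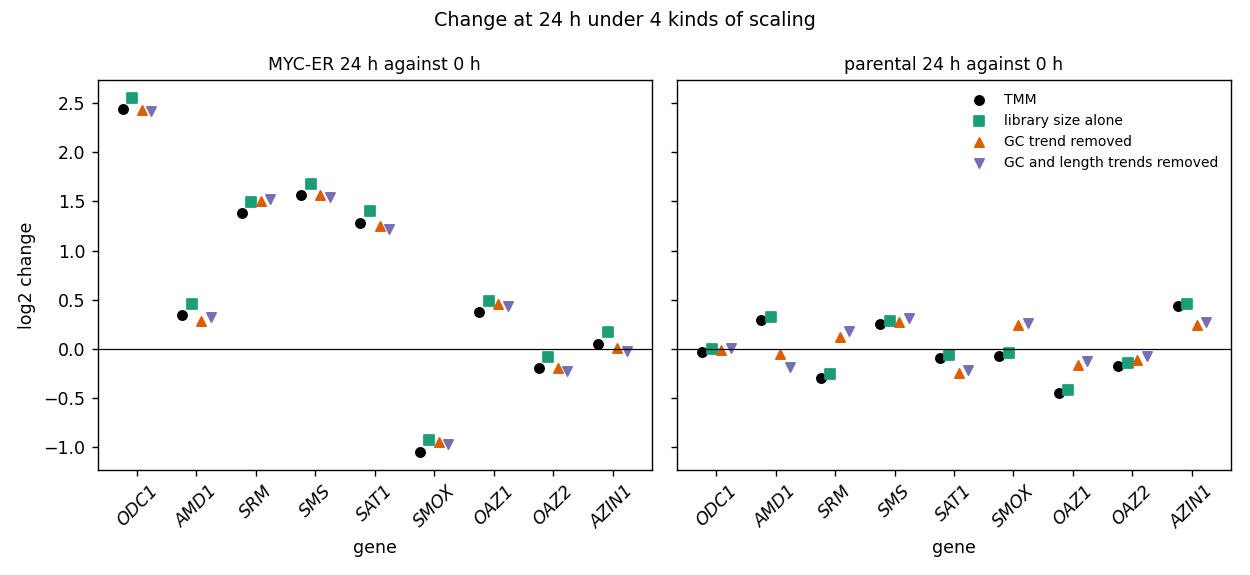
log2 change at 24 h against 0 h (vertical axis) of each gene in MYC-ER (left) and parental cells (right) with TMM scaling, library size alone, and the GC or the GC and length trends removed. In MYC-ER cells AZIN1 alone crosses 0 (0.05 under TMM, -0.02 with both trends removed), while in parental cells AMD1, SRM and SMOX lie clearly on both sides, with SRM at -0.30 under TMM and 0.18 with both trends removed.

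The change in MYC-ER cells was compared directly with the change in parental cells at the same time, as the line by time interaction. At 8 h 7 genes rose more and 1 less in MYC-ER (55.2% of all genes tested passed, 27.3% upward and 27.8% downward). At 24 h the counts were 5 more and 2 less (54.5%, 27.7% and 26.8%), and at 48 h 5 more and 3 less (45%, 23.6% and 21.4%). ODC1 rose more by log2 2.60 at 8 h (SE 0.084, adjusted p = 3.27e-16), SRM by 2.19 (SE 0.11, adjusted p = 3.56e-13) and SMS by 1.87 (SE 0.074, adjusted p = 7.43e-15). SAT1 differed by 1.28, 1.37 and 1.58 at the 3 times. For SMOX the sign turned, from 1.52 at 8 h to -0.98 at 24 h (SE 0.16, adjusted p = 1.82e-05). AZIN1 did not pass at 8 h, with a rise called in both lines and an interaction of 0.12 (SE 0.12, adjusted p = 0.413), but it was called with the GC trend removed (0.34, adjusted p = 0.00558) and with the length trend removed as well (0.26, adjusted p = 0.0339). AMD1, not called at 24 h (0.05, adjusted p = 0.76), was called under the same corrections (0.33, adjusted p = 0.00069, and 0.50, adjusted p = 5.5e-06). Its value at 48 h, -0.65, was -0.31 (adjusted p = 0.00193) and -0.17 (adjusted p = 0.0664) under them. The SRM value at 48 h, 0.42 (adjusted p = 0.0034), was 0.02 with the GC trend removed (adjusted p = 0.902), and that of OAZ1, 0.38 (adjusted p = 0.015), was 0.04 (adjusted p = 0.753). The latter also lost its call without parental 0 h replicate 3 (0.26, adjusted p = 0.0627) or parental 48 h replicate 1 (0.28, adjusted p = 0.0506).

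Before any 4-OHT the 2 lines already differed. In untreated MYC-ER cells 7 of the 9 genes were below their level in untreated parental cells and 2 higher (64.3% of all genes tested passed, 31.6% higher and 32.7% lower), with a median log2 difference of -0.79 against 0.00 over all genes. ODC1 was 7.87-fold lower (log2 -2.98, SE 0.063, adjusted p = 5.3e-20), SAT1 4.59-fold lower (log2 -2.20, adjusted p = 2.58e-17), SRM 3.09-fold lower and SMS 2.28-fold lower. These groups did not overlap. AZIN1 was called higher (log2 0.24, adjusted p = 0.0162) although its groups overlapped, and OAZ2 higher by 0.12 (adjusted p = 0.0315). Each call was lost when a single library was left out. For AZIN1 this was MYC-ER 0 h replicate 2 (0.22, adjusted p = 0.0522), parental 0 h replicate 1 (0.19, adjusted p = 0.0838) or replicate 3 (0.18, adjusted p = 0.0674). For OAZ2 it was MYC-ER 0 h replicate 2 (0.13, adjusted p = 0.0623) or replicate 3 (0.11, adjusted p = 0.113), or parental 0 h replicate 2 (0.07, adjusted p = 0.176).

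At 8 h the 2 lines were closer for most of these genes. SRM, SMS, SMOX and AZIN1 were higher in MYC-ER, by log2 0.56, 0.68, 0.73 and 0.36, ODC1, SAT1 and OAZ2 were lower, by -0.38, -0.92 and -0.54, and AMD1 and OAZ1 did not pass the test (48.6% of all genes passed, 23.1% higher and 25.5% lower). ODC1 in MYC-ER cells at 8 h lay below every parental library at 8 h. At 24 h 4 of the 9 genes were lower in MYC-ER and none higher (49.4%, 23.5% higher and 25.8% lower), namely ODC1 (log2 -0.51), AMD1 (-0.59), SAT1 (-0.83) and SMOX (-1.77). With scaling by library size alone 4 were higher and 4 lower (50.2% of all genes passed, and 60.7% of those were higher). The counts were 2 higher and 5 lower without parental 0 h replicate 2, which enters this comparison only through the estimate of the spread. At this time SMS (0.12, adjusted p = 0.06) was called higher in 9 of the 34 alternatives and OAZ2 (0.10, adjusted p = 0.0949) in 7. At 48 h 8 were lower and OAZ2 did not pass the test (56.7%, 27.3% higher and 29.4% lower), with ODC1 3.33-fold lower, AMD1 2.44-fold lower and SRM 2.31-fold lower than in parental cells.

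Ratios of counts of 2 genes within a library do not depend on how libraries are scaled. They can still carry the trend with GC content, for which they were not corrected. The GC content was 49.9% for ODC1, 59.1% for OAZ1 and 43.9% for SAT1. The ratios were not tested. ODC1 counts per OAZ1 count, the enzyme against its main antizyme, lay between 0.197 and 0.22 in untreated MYC-ER cells, between 1.2 and 1.22 at 8 h, between 0.835 and 0.905 at 24 h and between 0.404 and 0.408 at 48 h. In parental cells they lay between 0.862 and 1.13 without 4-OHT and between 1.43 and 1.48 after 8 h, so the MYC-ER ratio at 8 h lay above that of untreated parental cells and below that of parental cells at 8 h. SAT1 counts per ODC1 count, a breakdown gene against a synthesis gene, moved the other way. They lay between 0.576 and 0.617 in untreated MYC-ER cells, between 0.17 and 0.187 at 8 h, between 0.245 and 0.289 at 24 h and between 0.915 and 1.03 at 48 h. The last range is above that of untreated cells, since SAT1 stayed up while ODC1 came down. Parental values lay between 0.256 and 0.524 over all times.

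SRM counts per SMS count were 1.23 to 1.32, 1.35 to 1.42, 1.06 to 1.17 and 0.712 to 0.724 in MYC-ER cells at 0, 8, 24 and 48 h. The 48 h libraries were the lowest of all 24, and the only ones with fewer SRM than SMS counts. SMOX counts per SAT1 count, the oxidase against the acetyltransferase, lay between 0.0979 and 0.106 in untreated MYC-ER cells and between 0.152 and 0.18 at 8 h, and between 0.0161 and 0.0246 over the 6 later libraries. These gene pairs differ in length, so the ratios compare libraries and not the abundance of the genes. The pairs also differ in GC content (SRM 63.6% against SMS 49.8%, SMOX 59.7% against SAT1 43.9%). Differences between libraries may therefore hold part of the GC trend.

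For levels between genes, CPM were divided by the length in kilobases of each gene's longest principal transcript, from 1065 bases for SAT1 to 4721 for AZIN1. OAZ1 was the most abundant of the 9 per length in all 8 groups and SMOX the least. In MYC-ER cells at 0 h, mean CPM per kilobase fell from 266 for OAZ1 through 49.7 for SRM, 35.3 for SAT1 and 33.5 for AZIN1 to 28 for AMD1, 27 for SMS, 26.6 for OAZ2, 24.0 for ODC1 and 1.73 for SMOX, where AMD1, SMS and OAZ2 overlapped as neighbours. At 8 h the order was OAZ1 (356), SRM (216), ODC1 (187), SMS (108), SAT1 (84.2), AZIN1 (48.0), AMD1 (45.1), OAZ2 (16.1) and SMOX (6.70), with AZIN1 and AMD1 overlapping. ODC1 thus moved from the eighth place to the third. At 24 h ODC1 (130) and SRM (129) overlapped behind OAZ1 (345), and at 48 h SAT1 (103) was second to OAZ1 (247), ahead of SRM (48.0) and SMS (46.2), which overlapped, and ODC1 (43.3). In parental cells ODC1 (189) was second at 0 h, ahead of SAT1 (162.0) and SRM (153.5), which overlapped, and at 48 h SAT1 (159) and ODC1 (144) overlapped. These levels rest on annotated lengths and not on the transcripts used in these cells.

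The genes around the pathway were taken from 6 lists. At 8 h against 0 h in MYC-ER cells, 67.6% of all genes tested passed, 32.2% upward and 35.4% downward. In the list of ornithine supply and drain 7 of the 9 tested genes of 12 rose at 8 h in MYC-ER cells, 1 fell and 1 did not pass (median log2 1.40, against -0.10 over all genes). PYCR3, which makes proline from a precursor shared with ornithine, had 4.64 ± 0.44 CPM (SD, n = 3) at 0 h and 35 ± 1.5 at 8 h (log2 2.92). The mitochondrial arginase ARG2, which releases ornithine from arginine, rose from 2.15 ± 0.14 to 9.37 ± 0.41 CPM (log2 2.12), and the mitochondrial ornithine carrier SLC25A15 rose by log2 2.16. ARG2 was still up at 48 h (log2 1.69), when SLC25A15 was not called (0.04). Untreated MYC-ER cells held less ARG2 and PYCR3 than untreated parental cells, by log2 -3.16 for ARG2 and -2.63 for PYCR3. They held less of 8 of the 9 tested genes of this list (64.3% of all genes tested passed, 31.6% higher and 32.7% lower). OAT, ornithine aminotransferase, did not pass at 8 h (0.07), and ASS1, an enzyme of arginine synthesis, fell (-0.76). ARG1 and OTC were not tested for want of counts.

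The S-adenosylmethionine list held 6 tested genes, of which 3 rose at 8 h, 1 fell and 2 did not pass (67.6% of all genes tested passed). MAT2A, the synthetase of non-liver cells, held 322 ± 7 CPM at 0 h and 310.4 ± 17.9 at 8 h in MYC-ER cells and was not called (log2 -0.05). Its product is the substrate of AMD1. MTRR (1.24), MAT1A (1.15) and AHCY (0.84) rose and MAT2B (-0.80), the regulatory subunit of MAT2A, fell. Methylthioadenosine, the by-product of SRM and SMS, is salvaged by MTAP and further enzymes. Of the 4 tested genes of 5, ENOPH1 (1.04) and APIP (0.67) rose at 8 h and ADI1 (-0.60) and MRI1 (-0.25) fell. MTAP, whose locus is known as deleted in MCF-10A, was not tested. It had 0 counts in all 12 MYC-ER libraries, where a count of 0 allows up to 0.0219 CPM in the smallest library, and at most 16 counts in a parental library.

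In the transport list 6 of the 11 tested genes of 12 rose at 8 h in MYC-ER cells, 3 fell and 2 did not pass. Over all genes tested 67.6% passed, 32.2% upward and 35.4% downward. ATP13A3, a polyamine transporting ATPase, rose from 53.9 ± 0.9 to 202 ± 11 CPM (log2 1.91) and also rose in parental cells, by 1.08, 1.40 and 1.01 at the 3 times. Its parental 0 h libraries were spread from 34.0 to 79.7 CPM. The other polyamine ATPases differed from it. ATP13A2 rose at 8 h by 0.85 and not by the test in parental cells (-0.15), and ATP13A4 was lower (-2.25). SLC12A8, assigned to this list as a reported polyamine and amino acid transport protein, rose from 6.77 ± 0.50 to 27.1 ± 0.3 CPM (log2 2.0). SLC3A2 (-0.52) and CAV1 (-0.35) fell.

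Spermidine supplies the hypusine residue of the translation factor eIF5A. Of the 4 genes of that list 3 rose at 8 h in MYC-ER cells and 1 fell (67.6% of all genes tested passed). EIF5A rose from 277 ± 11 CPM at 0 h to 839 ± 31 at 8 h (log2 1.60) and held 875 ± 33 at 24 h (log2 1.66) and 331 ± 11 at 48 h (log2 0.25). Its 24 h libraries, from 845 to 910 CPM, overlapped those of 8 h, from 804 to 864 CPM. In parental cells EIF5A was 984 ± 157 CPM at 0 h. Its estimates at 8, 24 and 48 h lay below that by 0.21, 0.31 and 0.44 on the log2 scale, given here without regard to the test. Near-identical copies of EIF5A exist elsewhere in the genome, so its counts carry some uncertainty. EIF5A2 (2.71) and DOHH (1.27), the hydroxylase of the second step, rose and DHPS (-0.65), the synthase of the first, fell. Among the further enzymes and regulators, AZIN2 (-1.47), SAT2 (-1.43) and PAOX (-1.23) fell at 8 h and OAZ3 (-0.25) did not pass, 3 of the 4 tested genes of 6. In parental cells 3 of the 4 were called lower at 8 h and none higher (31% of all genes tested passed, 16% downward). AZIN2 thus went against AZIN1 in MYC-ER cells, and PAOX, the oxidase of acetylated polyamines, against SMOX. Both were low there, with means at 0 and 8 h of 2.87 and 1.035 CPM for AZIN2 and 1.01 and 0.43 CPM for PAOX. The parental means were 1.565 and 1.03 CPM for AZIN2 and 0.558 and 0.788 CPM for PAOX.

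**Figure D4:**
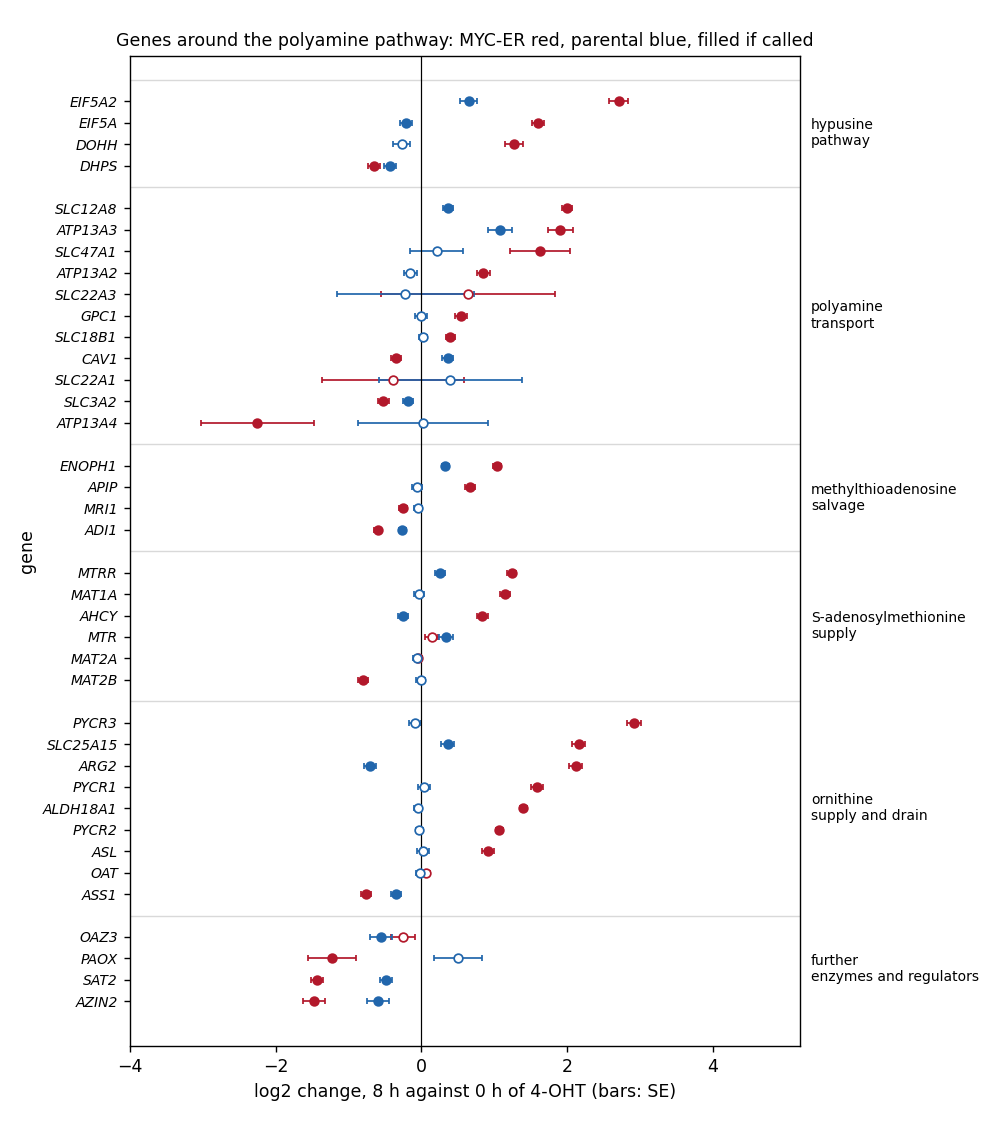
log2 change at 8 h against 0 h of 4-OHT (horizontal axis, bars of 1 SE) for the tested genes of the 6 surrounding lists (rows), MYC-ER in red and parental in blue, filled where the adjusted p is under 0.05. In MYC-ER cells PYCR3 (2.92), EIF5A2 (2.71) and SLC25A15 (2.16) lie farthest to the right among the called genes and ATP13A4 (-2.25) farthest to the left, and ATP13A3 is the gene with the largest called rise in parental cells (1.08).

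As a description over the 24 libraries, which share their 8 groups, the log2 CPM of ODC1 and SRM had a Pearson r of 0.92, the highest of any pair of the 9, and SRM and SMS had 0.88. SMS and OAZ2 had the lowest, -0.70. Among 9630 genes of at least 10 CPM on average, those most like ODC1 were RBM14 and TUBB4B (both 0.992), those most like SRM were DCTPP1 and AHSA1 (both 0.993), and those most like SMS were NOCT (0.986) and CCT4 (0.984). AMD1 was nearest to ZNF142 and C3orf38 (both 0.972) and SAT1 to ZBED2 (0.979). For SMOX, with 9631 genes searched, they were VAMP3 and ATOSB (both 0.973).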

How the data were processed

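Per the deposited table, values are whole-number counts of each gene in each library, without normalisation. Trimmomatic 0.39, STAR, StringTie 2.1.3b and GRCh38 are named in the submitters' processing notes. The annotation release, strand setting and treatment of reads matching several genes are not given in the sources used here. If StringTie produced the table, its counts are estimates from coverage. Groups came from the labels. Genes were filtered with filterByExpr and libraries scaled by TMM. The model was edgeR 4.0.16 under R 4.3.3, with a mean for each of the 8 groups over 24 libraries, and its quasi-likelihood test was two-sided at 0.05. The biological coefficient of variation was 0.151 over all genes. A prior count of 2 was used in log2 CPM. Replicates differed beyond counting noise. All members are named, as are genes of the surrounding lists and the 2 most similar genes per member, except that some items are not reported here. Members and lists were chosen with earlier results of these data known. In all 34 alternatives were tried, including DESeq2 1.42.0 and removal of GC and length trends (lowess, span 0.3). The code was tested on simulated data. Floors of 3 counts cover counting error only. Which libraries shared a lane is not given.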

Additional observations from a re-analysis of the deposited data

Results flagged for a closer look

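The 23 values below were noted because the change with 4-OHT differed between MYC-ER and parental cells by the interaction test (edgeR's quasi-likelihood test, adjusted p under 0.05). Each is the log2 change in MYC-ER minus that in parental cells, all against untreated cells, and within each line the 3 times share the untreated libraries. Over all genes tested 55.2%, 54.5% and 45% passed at 8, 24 and 48 h.

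For the synthesis genes, ODC1 differed by 2.60, 2.47 and 1.24 at the 3 times in that order, and SRM by 2.19, 1.68 and 0.42. SMS differed by 1.87, 1.31 and 0.82, and AMD1 by 0.54 at 8 h and -0.65 at 48 h. For the breakdown genes, SAT1 differed by 1.28, 1.37 and 1.58 and SMOX by 1.52, -0.98 and -0.48. For the regulators, OAZ1 differed by 0.66, 0.82 and 0.38, OAZ2 by -0.67 at 8 h, and AZIN1 by -0.39 at 24 h and -0.69 at 48 h. With GC trends removed the 48 h value of SRM was 0.02 and that of OAZ1 0.04, and the 24 h value of AZIN1 was -0.22 (adjusted p = 0.063). With GC and length trends removed the 48 h value of AMD1 was -0.17 (adjusted p = 0.0664).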

How the results depend on the processing

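Of 4590 values of the 9 genes under 34 alternatives, 4440 kept their direction and side of the threshold, 46 lost the call, 57 gained it and 47 changed sign. The alternatives include 24 fits that each leave out 1 library, and all 24 were counted for every comparison. Leaving out a library that is not in the comparison can hardly move its log2 change, so part of this agreement was fixed in advance. The count of members called moved beyond 1.5 times only in these cases. MYC-ER against parental at 24 h went from 4 to 8 with library size alone (50.2% of all genes called) and ran from 4 to 7 without single replicates. With only the groups compared, parental cells went at 8 h from 4 to 1, at 24 h from 6 to 2 and at 48 h from 5 to 3, and without single replicates the 8 h count ran from 3 to 7. The cause was not tested. Those fits called 7.41%, 25.1% and 16.6% of all genes in the parental comparisons.

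Sign changes with the GC trend removed, then GC and length, were in parental cells AMD1 -0.11 and -0.17 (8 h), -0.05 and -0.18 (24 h), -0.23 and -0.35 (48 h), SRM 0.23 and 0.27 (8 h), 0.12 and 0.18 (24 h), SMOX 0.24 and 0.26 (24 h), 0.13 and 0.15 (48 h), and in MYC-ER SAT1 -0.08 and -0.04 (24 h against 8 h) and, against parental at 48 h, OAZ2 -0.02 and 0.00. With both trends removed they were ODC1 0.01 (parental 24 h), SMS 0.01 (parental 48 h), AZIN1 -0.02 (MYC-ER 24 h), PYCR1 0.06 (lines at 0 h) and the SRM interaction at 48 h, -0.04. Of the parental sign changes, SRM at 8 h, AMD1 at 48 h and SMOX at 24 h were called with the changed sign under both corrections. AMD1 at 8 and 24 h and SRM at 24 h were so called only with both trends removed. Library size alone moved the median of all genes from 0.029 to 0.191 in MYC-ER at 48 h, with 73.8% of calls higher against 53%. It gave OAZ1 0.16 (24 h against 8 h) and 0.05 (48 h), SRM 0.11 and MAT2A 0.00 (48 h), parental SAT1 0.01 (8 h) and 0.03 (48 h), SMS 0.01 (48 h), and OAZ2 interactions of 0.06 and 0.04 at 24 and 48 h. Upper quartile scaling gave OAZ1 0.06 (24 h against 8 h) and those interactions 0.02 and 0.03. Without single replicates, ranges that crossed 0 were, for the interactions, AMD1 at 24 h (-0.08 to 0.12), AZIN1 at 8 h (-0.02 to 0.20) and OAZ2 at 24 h (-0.07 to 0.03), for OAZ1 between lines at 24 h -0.02 to 0.10, for SAT1 in MYC-ER from 8 to 24 h 0.00 to 0.05, and in parental cells SAT1 (-0.06 to 0.03 at 8 h, -0.08 to 0.04 at 48 h), SMOX at 24 h (-0.20 to 0.03), SMS at 48 h (-0.09 to 0.03) and SRM at 8 h (-0.18 to 0.08). No pairing of libraries by replicate number was seen: 0 of 84 same-numbered pairs had deviations correlated above 0.1 over all genes tested. A weak shared batch could stay below that cut, so pairing is not excluded. With a replicate block the member counts were 9, 8 and 7 in MYC-ER at 8, 24 and 48 h and 5, 6 and 5 in parental cells. Of all genes tested that fit called 67.2%, 61.3% and 43.7% in MYC-ER and 30.9%, 42.5% and 40.1% in parental cells.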
